A study of Mus musculus with 9 samples.

Results

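The cytosolic ribosomal protein genes were taken as the protein-coding genes whose mouse symbol is Rpl or Rps followed by a number, with an optional a, l, x or y and a further digit, together with Rplp0, Rplp1, Rplp2 and Rpsa. The pattern and these symbols matched 89 genes, of which 6 are pseudogenes and were left out, so that 83 of the 49671 genes in the count tables are members. Of these, 51 belong to the large and 32 to the small ribosomal subunit, and 6 are paralogues of another member (Rpl3l, Rpl7l1, Rpl10l, Rpl22l1, Rpl39l and Rps27l). They lie on 19 chromosomes, with 14 members on chromosome 7. RNA was measured by bulk poly(A) sequencing in KPCWT, a mouse pancreatic cancer line with intact CD49b (here WT), and in KPC49bKO, its CD49b knockout counterpart (here KO). Both were grown in serum-containing medium (2 WT and 2 KO libraries) or as tumours under the skin of syngeneic C57BL/6 mice that received no other agent (3 WT and 2 KO libraries). Each genotype is 1 line, so that the knockout cannot be told apart from other differences between these lines, and the age of the mice is not stated in the labels. The tumours were dissociated with enzymes and hold host cells, and the batch label equals the setting, so that culture and tumour cannot be told apart from batch.

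Ribosomal proteins clothe the ribosomal RNAs of both subunits and are needed in near equal numbers, 1 copy each for nearly all of them. Their mRNAs are among the most abundant of growing cells, carry a run of pyrimidines at the 5′ end (the TOP motif), and are translated or held back together under the control of the kinase mTORC1 and the RNA-binding protein LARP1. Ribosome synthesis is also driven by the transcription factor MYC and is raised in many cancers.

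The start sites of 11 members described below are printed as RefSeq (GRCm38.p6) lists them, 8 with and 3 without a pyrimidine run. Each line gives 15 bases before and 15 bases from the listed start in the direction of transcription, with every C followed by 4 bases that are C or T in capitals, on the sense strand and with overlapping runs joined. Rps26 and Rpl4 rose in KO culture, Rps26, Rps18, Rpl27a, Rpl39 and Rpl10 rose in KO tumours, Rpl12 and Rpl13a were lowest in tumours against culture, and Rpl24, Rpl27 and Rpl38 had the most negative values in KO culture.
Rps26 (chr10:128626492-128626521, minus): gtcgggcaagccgccggatCCTCTTTCgag
Rpl4 (chr9:64173372-64173401, plus): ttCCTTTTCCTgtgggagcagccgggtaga
Rps18 (chr17:33955651-33955680, minus): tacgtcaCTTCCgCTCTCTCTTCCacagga
Rpl27a (chr7:109519180-109519209, plus): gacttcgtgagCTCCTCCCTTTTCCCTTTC
Rpl39 (chrX:37085208-37085237, minus): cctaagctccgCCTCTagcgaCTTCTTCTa
Rpl10 (chrX:74270801-74270830, plus): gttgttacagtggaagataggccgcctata
Rpl12 (chr2:32961697-32961726, plus): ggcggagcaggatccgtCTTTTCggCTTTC
Rpl13a (chr7:45128731-45128760, minus): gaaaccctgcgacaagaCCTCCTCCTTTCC
Rpl38 (chr11:114668565-114668594, plus): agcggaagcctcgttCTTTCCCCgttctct
Rpl24 (chr16:55966260-55966289, plus): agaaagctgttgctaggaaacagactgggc
Rpl27 (chr11:101442230-101442259, plus): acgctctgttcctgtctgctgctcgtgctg
A start window was listed for 63 of the 83 members. A pyrimidine run lay within it for 42 of them (66.7%), against 40.3% of 27025 genes with a window, and began exactly at the listed start for 13 (20.6%), against 3.01% of genes. The printed windows of Rpl10, Rpl24 and Rpl27 held none. The letters CCGGAAGT, the core bound by factors of the ETS family, occurred on either strand of the 300 bases from 250 before to 50 after the start in 12 of the 63 (19.0%), against 4.31% of genes. Members with and without a pyrimidine run had nearly the same median log2 fold change of KO over WT, 0.17 and 0.13 in culture (39 and 21 members tested) and 0.36 and 0.36 in tumours.

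Total counts ran from 16032912 to 21247023 per library, and levels are given as counts per 1000000 counts of that total (CPM). Itga2, the gene of CD49b, stood at 150 and 110 CPM in WT culture, 81.7 and 82.0 in KO culture, 142, 168 and 164 in WT tumours and 47.6 and 72.9 in KO tumours, so that no library went against its label. In culture 6 of 7 leukocyte markers had no count in any library, and Ptprc alone was detected. Epcam, an epithelial adhesion molecule, stood at 3.16 and 2.83 CPM in WT culture and at 0 and 0.0548 CPM in KO culture, while Krt8, Krt18, Krt19 and Cdh1 stood at 542 CPM or more in each of the 4 culture libraries. WT tumours 1 and 2 were the closest replicates, with a chi-square per gene of 6.00 against 23.0 or more for the other replicate pairs. The labels call the replicates biological but do not say that they came from separate cultures or mice, so p-values measure the spread between these libraries. The second KO tumour is named KO tumour 3, the number its column carries.

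Ribosomal protein genes supplied about 1 in 10 counts in culture and about 1 in 20 in tumours. Their share was 9.29% and 11.5% in WT culture, 10.3% and 11.9% in KO culture, 4.48%, 4.67% and 4.01% in WT tumours, and 5.19% and 4.86% in KO tumours. The culture groups overlapped, whereas both KO tumours lay above all 3 WT tumours. The mean share was 2.37 times higher in WT culture than in WT tumours and 2.21 times higher in KO culture than in KO tumours. KO stood 1.07 times above WT in culture and 1.15 times above it in tumours. Large subunit genes made up 5.12% to 6.57% of counts in the culture libraries and 2.23% to 2.89% in the tumours, and small subunit genes 4.17% to 5.38% and 1.77% to 2.30%. Named ribosomal protein pseudogenes, 286 in all, took 0.0294% to 0.106% of counts per library, and reads shared with unnamed copies were not analysed here.

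**Figure D1:**
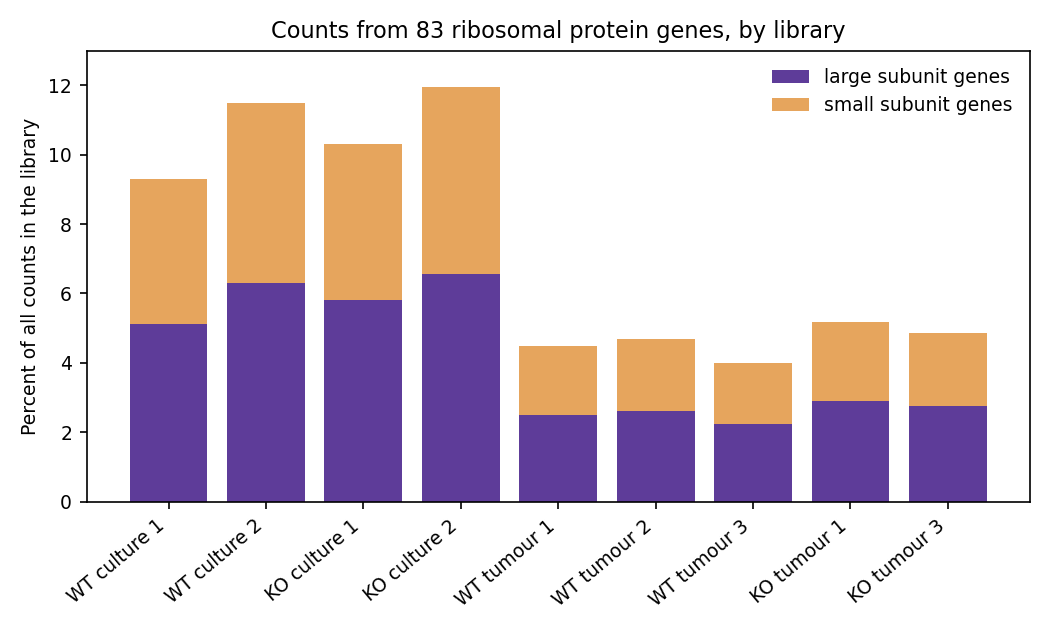
Percent of all counts that came from the 83 ribosomal protein genes in each of the 9 libraries, stacked by subunit. The 4 culture libraries sit between 9.29% and 11.9% and the 5 tumours between 4.01% and 5.19%.

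Within a library the members spanned a wide range even per length. Per kilobase of transcript, the 77 members that are no paralogue had a median of 1280 CPM in WT culture with quartiles of 891 and 2035, and a median of 615 CPM with quartiles of 410 and 847 in WT tumours. Rps14, a protein of the small subunit platform, had the highest mean in all 4 groups. It stood at 7506 ± 964 CPM per kilobase in WT culture (SD, n = 2) and 2317 ± 275 in WT tumours (SD, n = 3). In KO it stood at 6074 ± 1517 in culture and 2421 ± 622 in tumours (SD, n = 2 each). In KO culture and in both tumour groups its lead over the next member lay within the spread. Rps7 followed in WT culture at 5067 ± 1110 and Rps18 at 4617 ± 906 CPM per kilobase, both within the spread of their neighbours in the order. Rps29 stood at 248 ± 2.12 CPM per kilobase in WT culture. Rps20 had the lowest level of the 77 on this scale, 158 ± 20.2, where the annotated transcript used is 3706 bases long. A shorter transcript would raise this level, so its place in the order rests on that choice. Without regard to length, Rplp0 held the most counts in WT culture, at 4484 and 5504 CPM, and Rpl10l the fewest, with no count.

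Comparing KO with WT cells in culture asks how the lines differ without host cells. Of the 80 members tested, 4 rose in KO and none fell. Rps26, Rpl4 and Rps20 were among those that rose. Of the 13573 genes tested, 25.5% were called in either direction, 9.27% higher and 16.2% lower. Of the 80 log2 fold changes, 61 were above 0 (50% of all genes). Their median was 0.16 and that of all genes 0.00. The members' median was 0.018 without WT culture 1, 0.042 without KO culture 2, 0.28 without KO culture 1 and 0.35 without WT culture 2. Both KO libraries lay above both WT libraries for 31 members and below them for 3, where 26.8% of all genes were apart in the first direction and 33.0% in the second.

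Rps26, which lines the mRNA exit channel of the small subunit, measured 357 and 372 CPM in WT culture against 569 and 556 in KO culture. It rose by 0.65 on the log2 scale (SE 0.17, edgeR adjusted p = 0.0127), with replicates closer to each other than in most members. Rpl4, which lines the tunnel through which the new chain leaves, went from 1131 and 1114 CPM to 1767 and 1588 CPM, a rise of 0.60 (SE 0.18, edgeR adjusted p = 0.0306). Rps20, a protein of the small subunit head, went from 533 and 638 CPM to 865 and 820 CPM, a rise of 0.54 (SE 0.18, edgeR adjusted p = 0.0480). Rpl14 was next at 0.51, with 811 and 994 CPM in WT and 1266 and 1279 in KO (edgeR adjusted p = 0.0739).

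At the other end, no member passed the test. Rpl27, a large subunit protein, had the most negative value, -0.41 (SE 0.22, edgeR adjusted p = 0.199), with 1092 and 1406 CPM in WT and 824 and 1035 in KO. Rpl38, known for its part in the translation of Hox mRNAs, had 125 and 162 CPM in WT against 103 and 115 in KO, with a log2 fold change of -0.38 (SE 0.18, edgeR adjusted p = 0.160). Rpl24, which bridges the subunits, followed at -0.32, Rps14 at -0.28 and Rpl41, the smallest ribosomal protein, at -0.24. The KO and WT libraries of Rpl24, Rpl27 and Rpl38 did not overlap. In culture the second library of each line lay above the first for most members, 78 of 80 in WT (median log2 ratio 0.30) and 65 of 80 in KO (median 0.17). The 4 calls were lost without WT culture 1, without KO culture 1 and without KO culture 2, and 3 of them held without WT culture 2.

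In tumours the comparison asks how the lines differ when grown in mice. Of the 80 members tested, 18 were higher in KO tumours and none lower, 12 of 48 in the large and 6 of 32 in the small subunit. Among all 16257 genes tested, 19.7% were called in either direction and 8.78% were called higher, 10.9% lower. The median log2 fold change of the members was 0.36 against -0.01 for all genes, and 69 of 80 lay above 0 (49.7% of all genes). Both KO tumours lay above all 3 WT tumours for 53 members and below them for 6, where 21.2% and 32.1% of all genes were apart in those directions. In bulk tumours fewer cells of a type and less RNA per cell cannot be told apart.

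Rps20 had the highest value. It measured 325, 338 and 322 CPM in WT tumours against 640 and 485 CPM in KO tumours, with no overlap, and rose by 0.88 on the log2 scale (SE 0.17, edgeR adjusted p = 0.0163). Rps26 measured 250.5, 256 and 225 CPM in WT against 502 and 329 in KO, with KO tumour 1 far above the rest. It rose by 0.87 (SE 0.22, edgeR adjusted p = 0.0354). Rps29, a zinc-binding protein of the small subunit head, had 69.2, 68.9 and 59.3 CPM in WT against 106 and 91.2 in KO, a rise of 0.68 (SE 0.15, edgeR adjusted p = 0.0257). Rplp1, an acidic protein of the stalk, had tight groups, with 498, 510 and 521 CPM in WT and 773 and 751 in KO. Its rise was 0.67 (SE 0.11, edgeR adjusted p = 0.0115). Rpl10, which is fitted late in the making of the large subunit and is mutated in some leukaemias, measured 694, 707 and 628 CPM in WT against 1021 and 979 in KO, a rise of 0.66 (SE 0.13, edgeR adjusted p = 0.0172).

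The other 13 members called in tumours were Rpl39, Rpl36, Rpl27a, Rps18, Rpl32, Rps12, Rps13, Rpl7a, Rpl26, Rpl11, Rpl35, Rpl29 and Rpl15, with rises between 0.41 and 0.65. Rpl39 lies in the exit tunnel and stood at 115, 127 and 104 CPM in WT tumours and 167 and 172 in KO tumours (edgeR adjusted p = 0.0192). Rpl26, which is also known to bind the mRNA of p53, had 276, 284 and 241 CPM in WT against 352 and 355 in KO (edgeR adjusted p = 0.0398). Negative values did not pass the test: -0.22 for Rpl8 and for Rpsa, the laminin receptor precursor, -0.18 for Rpl24, and -0.17 for Rpl23 and for Rpl30.

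The number of calls in tumours rested on single libraries. Without WT tumour 1 or without WT tumour 2 no member passed, without WT tumour 3 there were 9, without KO tumour 1 there were 2 (Rplp1 and Rps20), and without KO tumour 3 there were 30, while DESeq2 called 31. With library totals in place of TMM scaling 12 of the 18 passed. Some other measures moved with genotype in the same tumours and some overlapped between WT and KO. Macrophage and neutrophil markers overlapped, with sums of 54.9 to 107 CPM in WT and 46.2 to 90.1 CPM in KO tumours. So did endothelial markers (45.5 to 116 and 29.3 to 57.2 CPM) and red blood cell markers (3.12 to 11.3 and 6.77 to 36.1 CPM). The summed level of 6 fibroblast and pericyte markers did not overlap, at 1253 to 3543 CPM in WT and 415 to 699 CPM in KO tumours. That of 7 leukocyte markers was 39.0 to 46.9 CPM and 57.9 to 124 CPM, though none of the 5 tested passed. That of 5 epithelial markers was 4942 to 6359 CPM and 8315 to 9736 CPM, but Epcam went the other way. Epcam stood at 128, 183 and 80.5 CPM in WT tumours and at 36.6 and 46.6 CPM in KO tumours. Mitochondrially encoded genes took 1.90% to 2.00% of counts in WT tumours and 2.69% and 3.33% in KO tumours, whereas in culture they took 4.72% and 3.39% in WT and 2.16% and 2.05% in KO. The part of these measures in the results for the members was not tested.

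**Figure D2:**
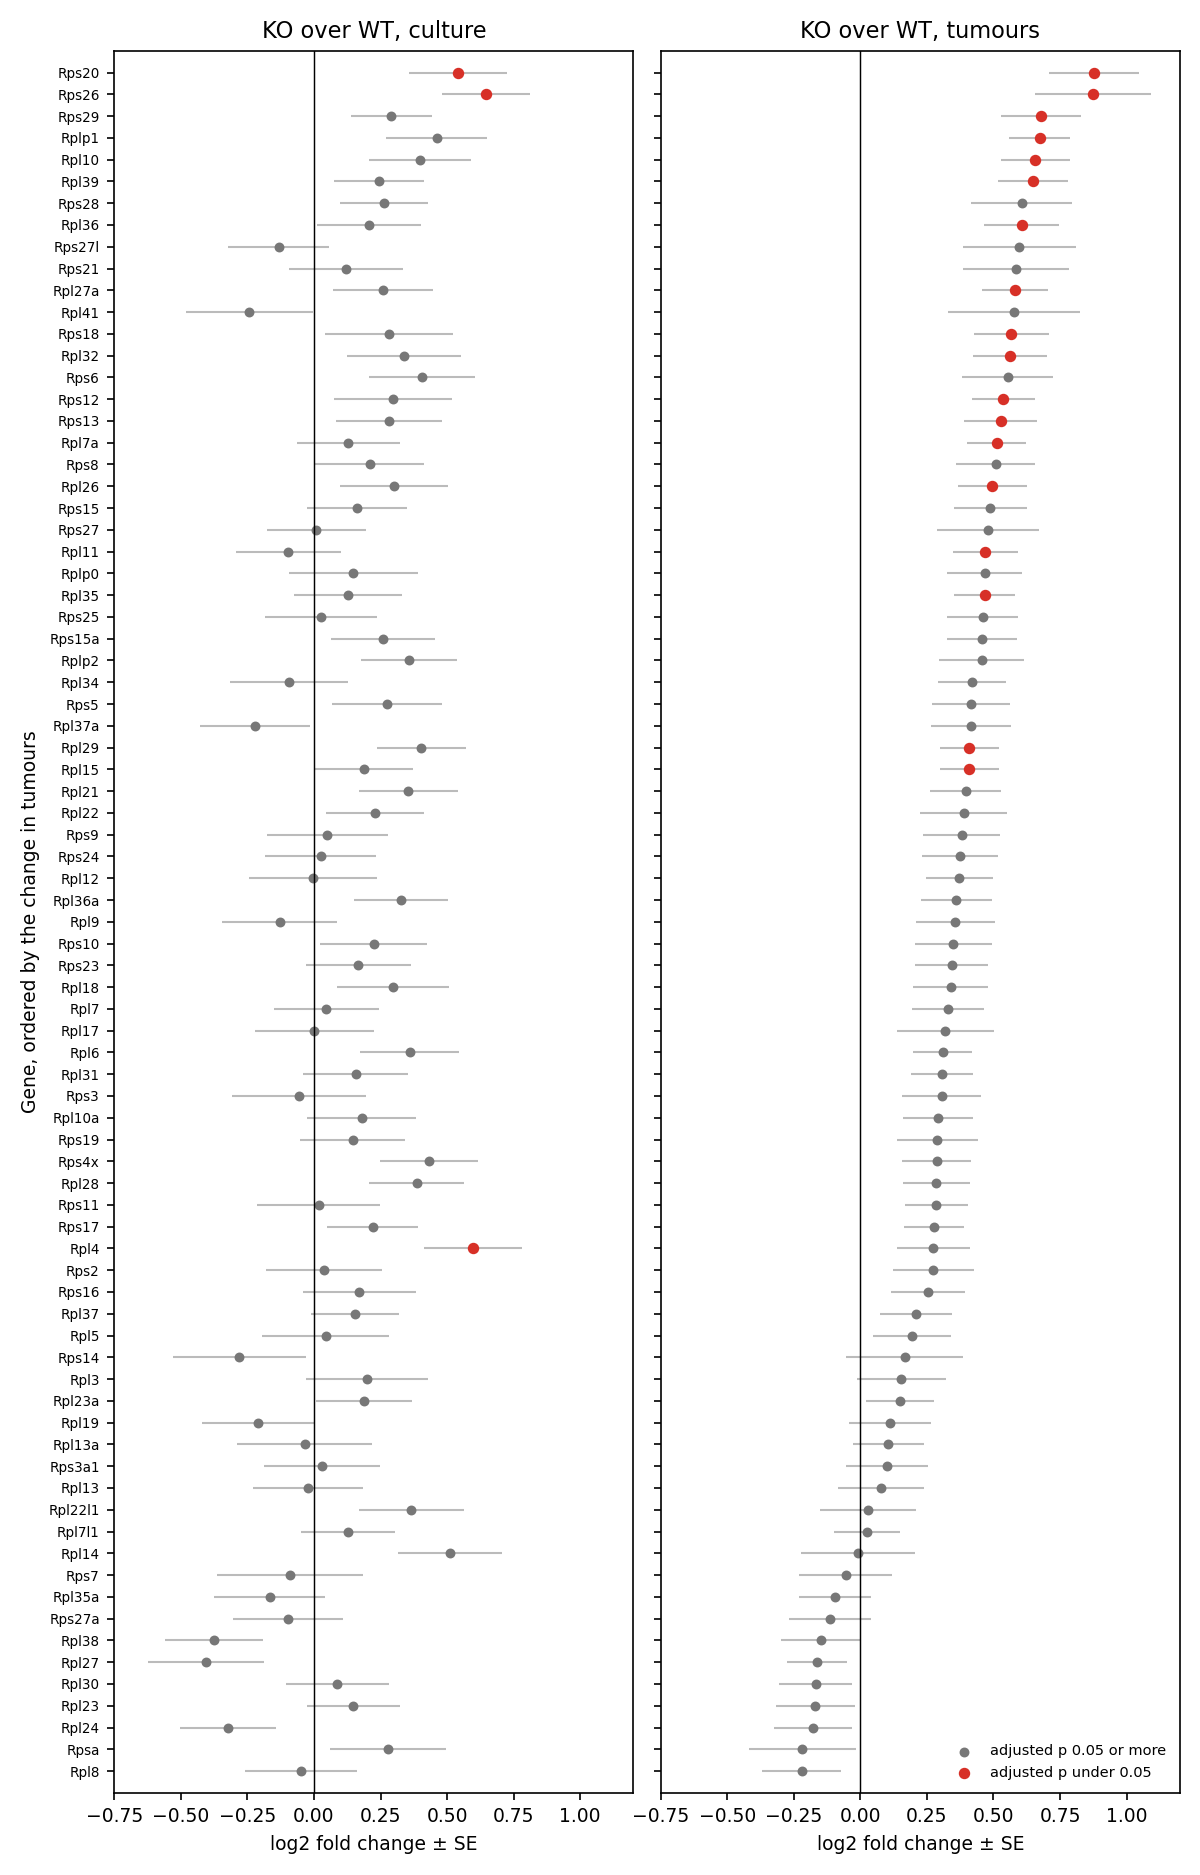
Log2 fold change of KO over WT with its SE for 79 of the 80 members tested, in culture (left) and tumours (right), in the order of the change in tumours. Red points passed an edgeR adjusted p of 0.05, 3 of those shown in culture and 18 in tumours.

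The effects in both settings come from separate libraries and can be set side by side. Rps20 and Rps26 were called in both, 2 of the 4 called in culture and 2 of the 18 called in tumours. For 57 members both values were above 0, for 7 both were below 0, and 16 differed in sign, 12 of them below 0 in culture and above 0 in tumours. Across the 80 members, which share libraries and are not independent, Pearson's r between the 2 effects was 0.48 and Spearman's rho 0.41. The difference between the effects, tested in 1 fit of all 9 libraries, passed for no member with edgeR or DESeq2, while 5.69% of 16793 genes passed with edgeR. Rpl11 alone had an unadjusted p under 0.05.

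The values of that difference, tumours minus culture, had a median of 0.18 over the members against 0.05 over all genes. Rpl41 had the highest, 0.79 (SE 0.40), Rps27l followed at 0.70 (SE 0.32) and Rpl37a at 0.61 (SE 0.28). Rpl14 had the lowest, -0.55 (SE 0.30), followed by Rpsa at -0.52 (SE 0.30) and Rpl22l1 at -0.36 (SE 0.30). Without WT culture 2 the median over the members was -0.065, so its sign rested on that library. It was 0.36 without WT culture 1, 0.064 without KO culture 1, 0.31 without KO culture 2, and 0.11 without WT tumour 3 or without KO tumour 1.

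**Figure D3:**
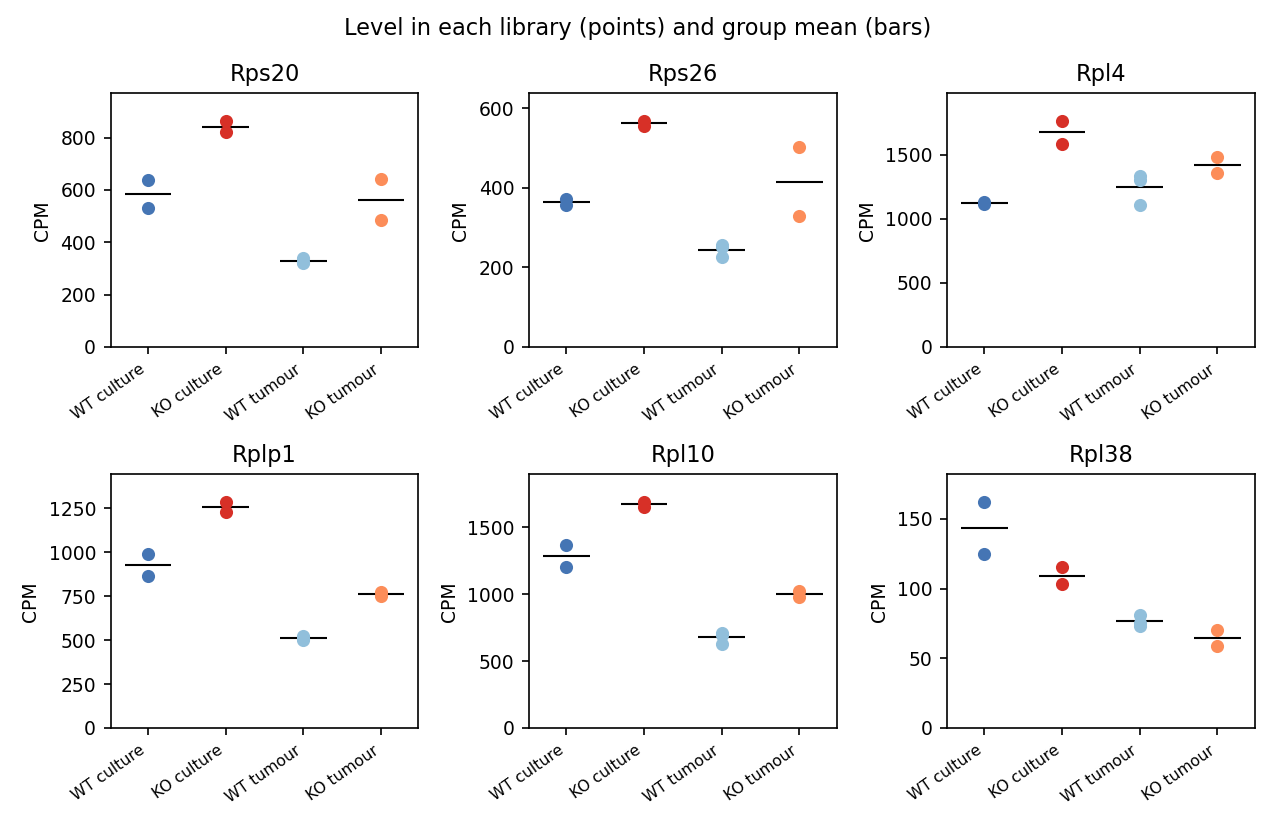
CPM of 6 members in each of the 9 libraries (points) with the group mean (bars), on axes that start at 0. Rps20 and Rps26 were called higher in KO in both settings, Rpl4 in culture, Rplp1 and Rpl10 in tumours, and Rpl38 was called in neither.

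Between settings nearly every member was lower in tumours. In WT, 79 of 80 members fell and none rose, against 65.7% of 16793 genes called in either direction and 29.6% called lower. In KO all 80 tested fell, against 59.3% called in either direction and 26.4% called lower. Median log2 fold changes were -1.66 in WT and -1.51 in KO, while all genes had a median of 0.17 in both. With library totals in place of TMM scaling the medians of all genes moved to 0.64 and 0.60 and those of the members to -1.18 and -1.08, so that relative to all genes the members were at -1.82 and -1.68, and at -1.83 and -1.69 under TMM scaling. Tumour and culture libraries did not overlap for 77 members lower in WT tumours (24.5% of all genes) and 79 lower in KO tumours (23.7%).

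The depth of the fall differed between members. Rpl12, part of the stalk base, went from 3647 and 4830 CPM in WT culture to 887, 899 and 785 CPM in WT tumours, a log2 fold change of -2.79 (SE 0.19, edgeR adjusted p = 1.91e-06). Rpl13a, also known for silencing mRNAs after interferon gamma once released from the ribosome, changed by -2.69 in WT and -2.58 in KO, and its 9 libraries ran from 586 to 3210 CPM with no tumour above 648 CPM. Rpl9 fell by 2.60 in WT. In KO, Rpl12 changed by -2.44 and Rpl22l1 by -2.40. Rpl4 differed by -0.32 in WT (SE 0.14, edgeR adjusted p = 0.0627) and was the only member tested that did not pass there, at 1131 and 1114 CPM in culture and 1302, 1339 and 1111 in tumours, so that its groups overlapped in CPM. With library totals its value turned to 0.16 (edgeR adjusted p = 0.312), the only member above 0 under that scaling in WT. Rps4x, the X-linked small subunit protein, changed by -0.60. In KO the smallest changes were -0.58 for Rpl37a (edgeR adjusted p = 0.0329), -0.67 for Rps29 and -0.67 for Rpl4.

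**Figure D4:**
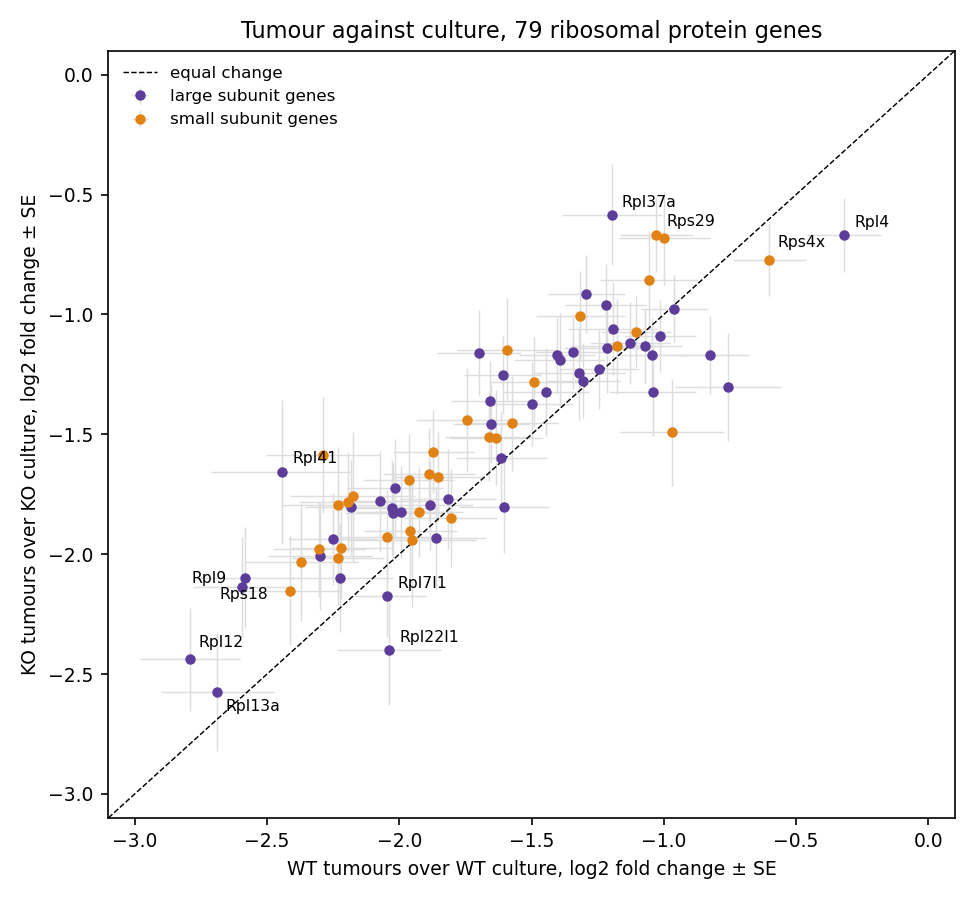
Log2 fold change of tumours over culture in WT (horizontal) and KO (vertical) for 79 of the 80 members tested, each with its SE, coloured by subunit. Under TMM scaling all points lie below 0 on both axes, from Rpl4 at -0.32 (0.16 with library totals) to Rpl12 at -2.79 in WT.

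Host cells were a measured difference between the settings. Fibroblast and pericyte markers summed to 2.31 CPM or less in culture and to 415 CPM or more in tumours, and epithelial markers to 7682 to 8534 CPM in culture and 4942 to 9736 CPM in tumours. In WT the epithelial markers summed to 8443 and 8465 CPM in culture and to 4942 to 6359 CPM in tumours. In KO they summed to 7682 and 8534 CPM in culture and to 8315 and 9736 CPM in tumours. The part of host cells, dissociation and batch in the fall of the members was not tested.

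The stalk, which recruits the elongation factors, is built from Rplp0, Rplp1 and Rplp2. Rplp0 stood at 4484 and 5504 CPM in WT culture, 4797 and 6096 in KO culture, 1594, 1705 and 1674 in WT tumours and 2270 and 2018 in KO tumours. Its log2 fold change of KO over WT was 0.15 in culture and 0.47 in tumours (edgeR adjusted p = 0.703 and 0.0605). Rplp2 had 402 and 492 CPM in WT culture, 571 and 559.8 in KO culture, 272, 282 and 253 in WT tumours and 382 and 307 in KO tumours, with values of 0.36 and 0.46 (edgeR adjusted p = 0.178 and 0.0894). In culture Rplp1 stood at 867 and 987 CPM in WT and 1230 and 1288 in KO. In the main fits Rplp1 was the only one of the stalk proteins to pass, in tumours. In culture it was also called with DESeq2, without a count filter, in 1 fit of all 9 libraries and with the replicate block, which called Rplp2 too. Rplp0 was called in tumours with DESeq2 and without a count filter. Whether Rplp1 differs from the other stalk proteins was not tested.

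Rpl5 and Rpl11 bind Mdm2 and thereby stabilise p53 when ribosome assembly is disturbed. Rpl11 was at 729 and 897 CPM in WT culture and 699 and 801 in KO culture, with a log2 fold change of -0.10, and rose in KO tumours by 0.47 (SE 0.12, edgeR adjusted p = 0.0412), from 355, 356 and 338 to 471 and 436 CPM. Rpl5 had values of 0.04 in culture and 0.19 in tumours and passed in neither. Rps6, the substrate of the S6 kinases, stood at 1073 and 1289 CPM in WT culture and 1482 and 1606 in KO culture (0.41, edgeR adjusted p = 0.164), and at 558, 575 and 528 CPM in WT tumours and 857 and 659 in KO tumours (0.55, edgeR adjusted p = 0.0645). Rpsa stood at 2583 and 3173 CPM in WT culture, 3357 and 3542 in KO culture, 2074, 2447 and 1632 in WT tumours and 1690 and 1622 in KO tumours, with values of 0.28 and -0.22.

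Of the 6 paralogues, 3 were measured well enough to be tested. Rpl22l1, whose level is known to be held down by Rpl22, stood at 224 and 288 CPM in WT culture, 293 and 358 in KO culture, 94.6, 97.4 and 69.3 in WT tumours and 84.3 and 82.6 in KO tumours. Rpl22 itself stood at 380 and 466 CPM, 470 and 509, 276, 274 and 226, and 343 and 290. Between tumours and culture Rpl22l1 changed by -2.04 in WT and -2.40 in KO, and Rpl22 by -1.19 and -1.06. Per kilobase, Rpl22l1 was at 464 and Rpl22 at 893 CPM in WT culture, and at 158 and 545 CPM in WT tumours.

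Rpl7l1, an assembly-linked relative of Rpl7, changed by -2.05 in WT tumours and -2.18 in KO tumours against culture, while Rpl7 changed by -1.22 and -0.96. Rps27l, a target of p53 and relative of Rps27, stood at 95.2 and 121 CPM in WT culture, 87.3 and 107 in KO culture, 23.9, 29.4 and 39.2 in WT tumours and 45.1 and 42.3 in KO tumours. It changed by -2.29 in WT and -1.59 in KO against culture, beside -1.59 and -1.15 for Rps27. No paralogue passed between KO and WT in either setting. The other paralogues were at or near 0: Rpl10l, a gene of the testis, had no count in any library, Rpl3l, a gene of heart and skeletal muscle, had at most 18 counts (in WT tumour 3), and Rpl39l had 8, 4 and 9 counts in WT tumours and at most 2 elsewhere. Their parents Rpl10, Rpl3 and Rpl39 were tested in every comparison.

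**Figure D5:**
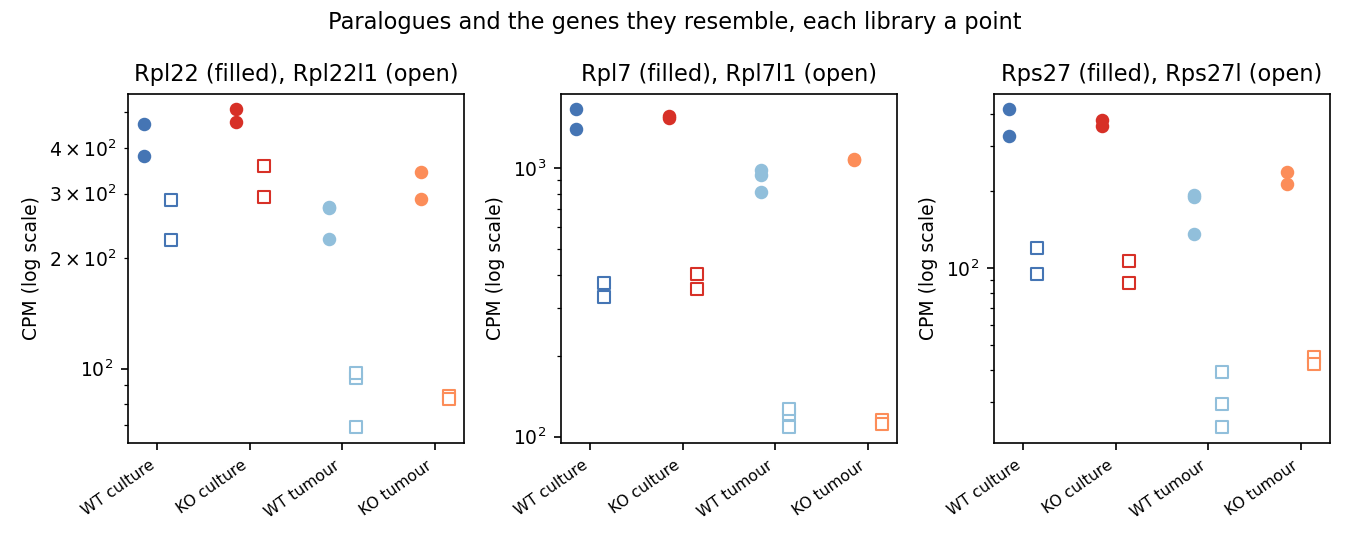
CPM on a log axis of 3 paralogues (open squares) and the members they resemble (filled circles) in each library, by group. Rpl22l1, Rpl7l1 and Rps27l lie below their parents in all 9 libraries, and all 6 genes are lower in tumours than in culture.

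Fau, Rack1 and Rpl36al are ribosomal proteins whose symbols fall outside the pattern. None of these 3 was called between KO and WT, and all 3 were lower in tumours than in culture in both lines. Among 15 translation factors and other proteins whose mRNAs carry the TOP motif, 1 was higher in KO culture and none lower. It was Eef2, which moves the ribosome along the mRNA (0.72, edgeR adjusted p = 0.0230). In KO tumours 2 were higher and 1 lower, and 10 of 15 were lower in tumours than in culture in each line. Of all genes tested, 9.27% were called higher and 16.2% lower in KO culture, and 8.78% and 10.9% in KO tumours. Against culture, 29.6% of all genes were called lower in WT tumours and 26.4% in KO tumours. Eef1a1, the most abundant of the 15, changed by -1.72 in WT and -1.59 in KO tumours against culture. Eef2 went the other way in WT, where it rose by 0.46 in tumours (edgeR adjusted p = 0.0306).

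Of 51 ribosome biogenesis factors tested, 23 were higher in KO culture and none lower, with a median of 0.48, where 9.27% of all genes were called higher and 16.2% lower. In KO tumours none was higher and 1 lower, with a median of -0.02, where 8.78% of all genes were called higher and 10.9% lower. Whether these factors differ from the members was not tested. Of 17 regulators of ribosome synthesis and translation, 2 were higher and 2 lower in KO culture, and 1 was higher and 3 lower in KO tumours. Myc and Eif4ebp1 were the 2 that rose in culture. Myc stood at 307 and 237 CPM in WT culture and 470 and 345 in KO culture, a rise of 0.60 (SE 0.18, edgeR adjusted p = 0.0287). It had a value of 0.22 in tumours (edgeR adjusted p = 0.350). Eif4ebp1, the translation repressor that mTORC1 switches off, rose in KO in culture (0.49, edgeR adjusted p = 0.0443) and in tumours (0.41, edgeR adjusted p = 0.0426). Of 12 proliferation genes 9 were lower in KO culture and 1 in KO tumours.

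Mitochondrial ribosomal proteins, which serve the separate ribosome of the mitochondrion, had 2 of 78 higher and 6 lower in KO culture (median -0.01) and 10 higher and none lower in KO tumours (median 0.33). Over all genes the shares were 9.27% higher and 16.2% lower in culture and 8.78% and 10.9% in tumours. Against culture, 74 of 78 were lower in WT tumours and 66 of 78 in KO tumours, with medians of -1.38 and -1.08. Biogenesis factors were lower in tumours for 40 of 51 in WT and 47 of 51 in KO. Of all genes tested against culture, 29.6% were called lower in WT tumours and 26.4% in KO tumours. The 17 regulators were mixed, with 9 higher and 5 lower in WT tumours and 6 higher and 5 lower in KO tumours (medians 0.50 and 0.17). Of the 16793 genes tested, 6055 were called higher in WT tumours and 5519 in KO tumours. Within this list Myc changed by -1.34 and -1.75 and Eif4ebp1 by -2.09 and -2.19 between these settings.

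Transcript length and base composition described little of the spread among members. Across the 80 members, Spearman's rho of the KO over WT value was 0.07 with transcript length and 0.03 with GC content in culture, and -0.26 and 0.04 in tumours. For tumours over culture it was 0.05 and -0.03 in WT and -0.09 and -0.06 in KO, where rho with the members' mean CPM was -0.32. These are descriptions over genes measured in the same libraries.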

How the data were processed

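The authors deposited 1 table of raw counts per setting (culture with 4 and tumours with 5 libraries), which were the start of every test. Per the submitters' processing notes, the reads were handled with STAR 2.5.2b, fastp 0.23.1, Subread 1.5.2, featureCounts and DESeq2 (GRCm38), whose roles are not listed, and per the labels' protocols duplicates were removed by unique molecular identifiers. The treatment of reads with several positions and of strand is not given in the sources used here, so counts shared between a member and its pseudogenes or relatives are uncertain. The normalized and log2 (rlog) tables the authors deposited were not used. Symbols came from GENCODE M21, which named 49412 of 49671 genes.

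Genes were kept by filterByExpr (minimum count 10, total 15), scaled by TMM and tested in edgeR 4.0.16 (R 4.3.3) by its quasi-likelihood test, with Benjamini-Hochberg adjustment over all genes tested and a threshold of 0.05. KO was compared with WT within each setting, and tumours with culture, and the difference of KO effects, in 1 fit of all 9 libraries. Printed CPM are counts per 1000000 of the library total, and folds come from the TMM fits. The 3 members not tested failed the count filter. Alternatives were other scalings, no filter, DESeq2 1.42.0, 1 fit of all libraries, a replicate block and each library left out. The scripts were tested on simulated data. Lengths are of the shortest basic coding transcript with the best principal-isoform tag. The members, lists and tests were chosen with earlier results of these data known. Named are Itga2, the members with the 5 (for other comparisons 3) most positive and negative changes, the paralogues with their parents, the stalk proteins, Rpl5, Rpl11, Rps6, Rpsa, the highest and lowest by CPM, and up to 4 genes of a list with the smallest p. Those of the sequence lines, Rpl39, Rpl26, Rps7, Rps18, Fau, Rack1, Rpl36al, Eef1a1, Nop56, Heatr1, Epcam and the other epithelial markers were named after their values were seen. Values of some members and other genes are not reported here, though counts and medians cover all that were tested.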

Additional observations from a re-analysis of the deposited data

Results flagged for a closer look

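No ribosomal protein gene of the rule was flagged. In 10 genes of the lists on ribosome synthesis and the mitochondrial ribosome the effect of the knockout in tumours differed from that in culture by edgeR's test of the difference at an adjusted p under 0.05, and the 8 named first are up to 4 per list with the smallest p. The log2 difference, tumours minus culture, was -0.86 for Polr1b, the second largest subunit of RNA polymerase I, and -0.96 for Deptor, an inhibitor of mTOR. Among ribosome biogenesis factors it was -0.99 for Sdad1, -0.94 for Wdr43, -0.92 for Rrs1 and -1.32 for Rrp1b, and Nop56 (-1.02) and Heatr1 (-0.92) also passed. Among mitochondrial ribosomal proteins it was 1.34 for Mrpl14 and 1.26 for Mrps21. Sdad1, Wdr43, Rrs1, Rrp1b and Polr1b each rose in KO culture, by 0.48 (Rrs1) to 0.84 (Wdr43), and had values from -0.53 (Rrp1b) to -0.08 (Wdr43) in KO tumours that did not pass. Among the epithelial markers the difference was 1.49 for Krt19 and 4.99 for Epcam, and Krt8 passed as well. Epcam was lower in KO in both settings, and its difference rests on levels near 0 in culture. These were 3.16 and 2.83 CPM in WT culture and 0 and 0.0548 CPM in KO culture.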

How the results depend on the processing

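No result past its threshold changed direction under the alternatives run. Of values that had not passed, the median difference of effects turned to -0.065 without WT culture 2, and Rpl4 between WT tumours and WT culture turned to 0.16 with library totals. Members higher in KO culture numbered 4, and 7 with DESeq2, 0 to 4 with each library left out, and 38 with the replicate block, which also called 7 lower. With that block 45 members were called where the fit without it called 4. Same-numbered culture libraries deviated together (r = 0.57), but with 2 pairs that share only a number this does not show pairing. No block was fitted in tumours, since the labels number the KO tumours 1 and 2 while the columns carry 1 and 3. In tumours the 18 calls became 31 with DESeq2 and 0 to 30 with each library left out. A group left with 1 library was assumed to vary like the others. Median changes of tumours against culture moved with library totals to -1.18 in WT and -1.08 in KO, and in WT ran from -1.87 to -1.47 with each library left out. The median KO effect in culture ran from 0.018 to 0.35 and in tumours from 0.26 to 0.47 with each library left out. The difference of effects had 1 call without a count filter, and its median ran from -0.065 to 0.36. Adding the ribosomal proteins whose symbols fall outside the pattern raised the share in KO tumours to 5.26%. The lowest member tested had at least 413 counts in every library, and groups held 2 or 3 libraries. Which of these limits the tests more was not examined.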
